A study of Gallus gallus with 858 samples.

Results

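Some GATA3-expressing cells of the chick ear region carried no transcripts of the later otic and epibranchial genes after the stage at which most of their neighbours did. These cells, called marker-low here, were compared with GATA3-expressing cells that did carry such transcripts, called marker-positive. The marker-low cells were proposed as uncommitted placodal cells, and the marker-positive cells as committed ones. Both groups were chosen by their own counts. A cell had to have at least 500000 counted reads, 1000 detected genes and 10 CPM of GATA3, where CPM are counts scaled to a total of 1000000 reads in the cell. It was marker-low where SOHO-1, VGLL2 and ISL1 were each under 2 CPM, and marker-positive where at least 1 of them reached 20 CPM. By this rule 51 cells were marker-low, 29 of them at ss11 and 22 at ss15, out of 230 GATA3-positive cells, 508 cells past the limits on reads and genes at these stages, and 858 cells in the whole series. The marker-positive group held 78 cells at ss11 and 94 at ss15.

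All cells came from chick embryos whose ectoderm had been electroporated at head fold stages with a Pax2E1-EGFP plasmid, in which an enhancer of Pax2 drives enhanced green fluorescent protein. Single cells with EGFP fluorescence were sorted and made into SmartSeq2 libraries, a full-length transcript protocol without molecular identifiers. Embryos had 11 to 12 somites (ss11) or 14 to 15 somites (ss15), and cells of embryos with 8 to 9 somites (ss8) are given beside them once. The labels tie no cell to an embryo, so the cells of a stage stand as 1 sample, sorted once, and no test between groups of cells was possible. The intervals given are exact, at 95%, and cover counting error alone, of reads for a CPM and of cells for a share. The spread between embryos and sorts is not in them, and no difference between groups is read from them.

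The ear and the epibranchial ganglia, which give the sensory neurons of the facial, glossopharyngeal and vagal nerves, arise from a shared field of thickened ectoderm beside the hindbrain. Cells of this field express the zinc finger factor gene GATA3 and at first can take either path. SOHO-1 encodes a homeodomain factor of the otic placode, VGLL2 a TEAD cofactor found in epibranchial ectoderm, and ISL1 a LIM-homeodomain factor of sensory neuron progenitors. That none of these transcripts was read in a cell does not by itself show that the cell was uncommitted.

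The limits separated the groups with few cells between them. In 28 of the 29 marker-low cells at ss11 and all 22 at ss15, no read of SOHO-1, VGLL2 or ISL1 was counted. The remaining ss11 cell had 1.42 CPM. The 5 cells between the limits at ss11 had 3.73, 3.81, 9.24, 10.99 and 16.2 CPM of their highest gate gene, and the 2 at ss15 had 4.48 and 16.2 CPM. The lowest marker-positive cell had 24.3 CPM at ss11 and 25.4 CPM at ss15, and the median was 204.6 CPM at ss11 and 292 CPM at ss15. The lowest GATA3 value among marker-low cells was 13.1 CPM at ss11 and 14.1 CPM at ss15. The highest value under the limit was 4.29 CPM at ss11 and 9.18 CPM at ss15. Beyond the limit, the median GATA3 level was 137.2 CPM in marker-low against 158.02 CPM in marker-positive cells at ss11. At ss15 the medians were 125.7 against 159.3 CPM, and the ranges overlapped at both stages. Without the marker-low cells that carried neural crest or mesoderm markers, described below, their medians were 153.2 CPM at ss11 and 178.4 CPM at ss15. The lower GATA3 level at ss15 thus did not hold for the remaining marker-low cells. As GATA3 itself chose the cells, these medians describe the groups and no difference between them is read from GATA3.

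**Figure D1:**
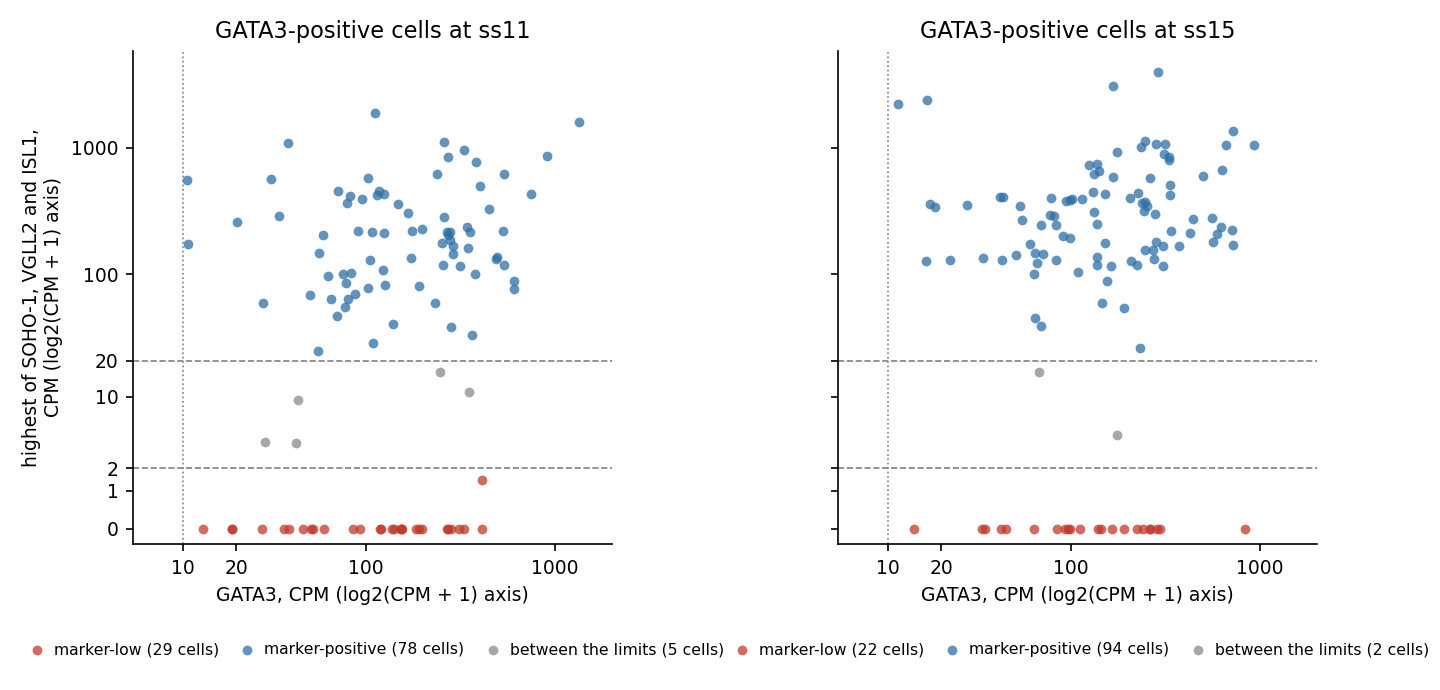
Each point is a GATA3-positive cell at ss11 (left) or ss15 (right), with GATA3 on the horizontal axis and the highest of SOHO-1, VGLL2 and ISL1 on the vertical axis, both in CPM on a log2(CPM + 1) scale. Dashed lines mark 2 and 20 CPM and the dotted line 10 CPM of GATA3. All marker-low cells but 1 lie at 0, and 5 cells at ss11 and 2 at ss15 fall between the limits.

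Marker-low cells made up 25.9% of GATA3-positive cells at ss11 (29 cells, 18.1 to 35.03) and 18.6% at ss15 (22 cells, 12.1 to 26.9). The marker-positive cells were 69.6% at ss11 (60.2 to 77.98) and 79.7% at ss15 (71.3 to 86.5). Of them, 33 at ss11 and 42 at ss15 had SOHO-1 alone past 20 CPM, 34 and 38 had VGLL2 or ISL1 alone, and 11 and 14 had SOHO-1 together with at least 1 of the other genes. The marker-positive group was therefore a mixture of otic-type and epibranchial-type cells in near-equal numbers, and the main differences below were also taken against either type.

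The identity of the marker-low cells was checked against cell type markers. Most of them carried the epithelial gene EPCAM. EPCAM, an adhesion molecule of epithelia, reached 10 CPM in 24 of 29 marker-low cells against 73 of 78 marker-positive cells at ss11, and in 19 of 22 against 91 of 94 at ss15. The E-cadherin gene CDH1 did so in 16 of 29 against 58 of 78 and in 14 of 22 against 60 of 94. Of 15 surface ectoderm and epithelial genes measured at each stage, described below, 14 were lower in marker-low cells at ss11 and 7 at ss15. EPCAM alone therefore does not settle epithelial identity. Otic genes were present too. SOX8 or LMX1A reached 10 CPM in 25 of 29 marker-low cells (86.2%, 68.3 to 96.1) against 67 of 78 marker-positive cells (85.9%, 76.2 to 92.7) at ss11, and in 17 of 22 (77.3%, 54.6 to 92.2) against 67 of 94 (71.3%, 61.02 to 80.1) at ss15. The epibranchial genes TFAP2E or NELL1 reached it in 15 of 29 (51.7%, 32.5 to 70.6) against 55 of 78 (70.5%, 59.1 to 80.3) at ss11, and in 12 of 22 (54.5%, 32.2 to 75.6) against 54 of 94 (57.4%, 46.8 to 67.6) at ss15. Just 2 marker-low cells at each stage had none of these 4 genes, against 3 of 78 and 5 of 94 marker-positive cells. Absence of the 3 gate genes thus did not go with an absence of all 4 of these genes. The share with TFAP2E or NELL1 was lower in marker-low cells at ss11, and SOX8 is not particular to otic cells, as described below.

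A part of the marker-low cells carried neural crest markers. Neural crest cells are migratory cells that leave the dorsal neural tube next to this ectoderm, and PAX7, FOXD3, TFAP2B, DRAXIN, RXRG and EDNRB mark them, although TFAP2B, DRAXIN and RXRG are not particular to them. At least 3 of these 6 genes reached 10 CPM in 4 of 29 marker-low cells (13.8%, 3.89 to 31.7) against 2 of 78 marker-positive cells (2.56%, 0.312 to 8.96) at ss11. At ss15 the numbers were 6 of 22 (27.3%, 10.7 to 50.2) against 5 of 94 (5.32%, 1.75 to 11.98). The summed level of the 6 genes ran up to 1619 CPM in marker-low cells and 2872 CPM in marker-positive cells at ss11, with medians of 167.6 and 1.33 CPM, and up to 2559 and 1111 CPM at ss15, with medians of 93.3 and 0 CPM. The 10 crest-marked marker-low cells differed from the other 41 in genes outside that list. Their median EPCAM was 16.97 CPM against 1157 CPM, and their median SOX10 1123 against 157.6 CPM. Every one of the 10 had SOX8 past 10 CPM, and SOX8 and SOX10 are SoxE factor genes known from neural crest as well as from the ear. NELL1 reached it in 2 of the 10. The marker-low group was therefore mixed, and the word uncommitted, which names a single state, was not borne out for the group as a whole.

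**Figure D2:**
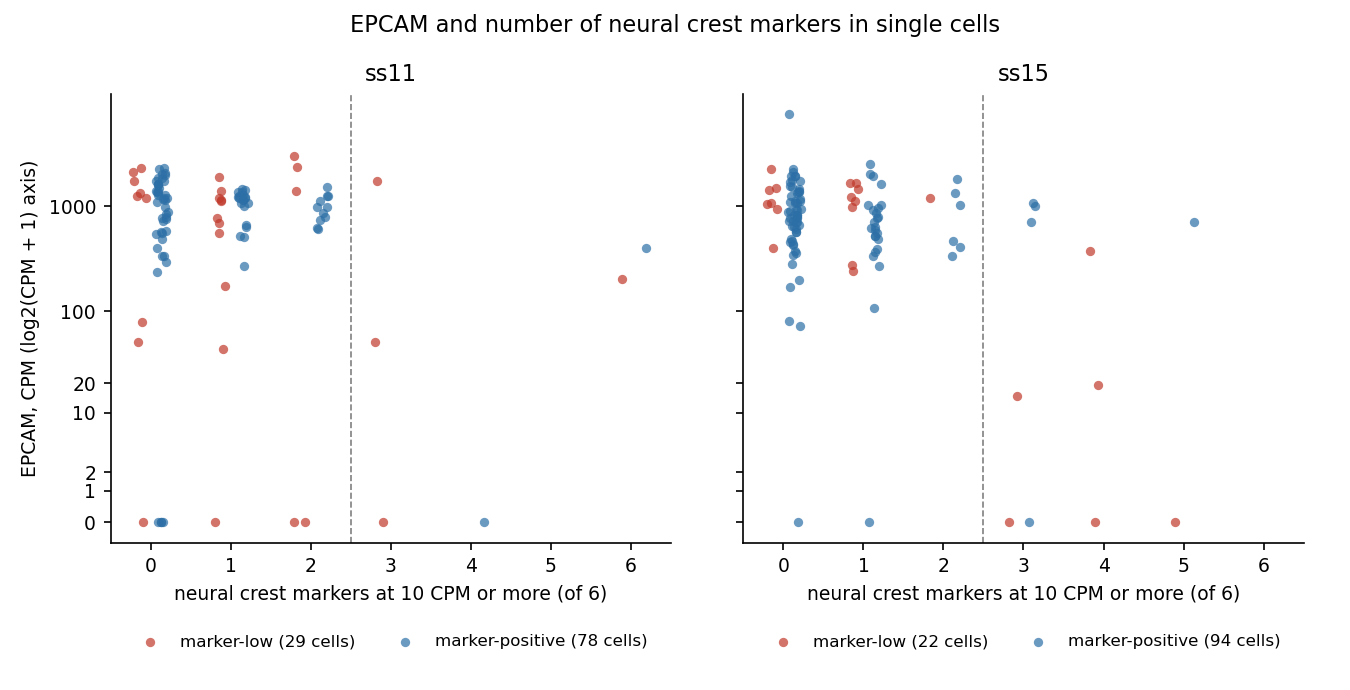
Each point is a cell, with the number of 6 neural crest markers at 10 CPM or more on the horizontal axis and EPCAM in CPM on a log2(CPM + 1) vertical axis, at ss11 (left) and ss15 (right). The dashed line marks the limit of 3 markers. Past it lie 4 of 29 and 6 of 22 marker-low cells, and 7 of these 10 have EPCAM under 100 CPM.

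Markers of mesoderm and neural tissue were found in few cells, and those of pharyngeal endoderm mainly in marker-positive cells. The mesoderm markers TWIST1, SIM1 or HAND1 reached 10 CPM in 2 of 29 marker-low against 4 of 78 marker-positive cells at ss11 and in 1 of 22 against 3 of 94 at ss15, with summed levels of at most 92.2 and 86.7 CPM at ss11 and 17.4 and 20.9 CPM at ss15. The neural markers ZIC1 or ZIC2 reached it in 1 of 29 against 1 of 78 at ss11 and in 0 of 22 (up to 15.4%) against 1 of 94 at ss15. The pharyngeal endoderm markers FOXA1, NKX2-3 or NKX2-6 were detected in 1 of 29 marker-low cells against 13 of 78 marker-positive cells at ss11, and in 1 of 22 against 19 of 94 at ss15. Their summed level reached 22.3 CPM at most in marker-low cells at ss11 and 22.2 CPM at ss15, but 369 and 1088 CPM in marker-positive cells. Those highest sums were NKX2-6 alone, and at ss15 NKX2-6 reached 10 CPM in each of the 19 marker-positive cells. At ss11 some of the 13 carried FOXA1 or NKX2-3 without it. The ss15 count thus follows 1 gene rather than several endoderm markers. Because the crest-marked cells moved with the marker-low group, the main differences below are followed by their values without the cells that had 3 or more crest markers, TWIST1 or SIM1. These were 6 of 29 and 6 of 22 marker-low cells and 5 of 78 and 6 of 94 marker-positive cells.

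Complexity and reporter level also moved with the groups. The median marker-low cell had 986091 counted reads against 1012880 in marker-positive cells at ss11, and 810593 against 846298 at ss15, so depth was similar. With every cell thinned to 500000 reads, the median marker-low cell had 4269 genes against 5384 at ss11, but 5610 against 4850 at ss15, so that the groups stood in opposite order at the stages. Without thinning the medians were 4495 against 5511 and 5708 against 4959 genes. In marker-low cells without crest or mesoderm marking the thinned medians were 4114 genes at ss11 and 5076 at ss15. GFP reads were found in 19 of 29 marker-low cells (65.5%, 45.7 to 82.1) against 69 of 78 marker-positive cells (88.5%, 79.2 to 94.6) at ss11, and in 14 of 22 (63.6%, 40.7 to 82.8) against 81 of 94 (86.2%, 77.5 to 92.4) at ss15. The median GFP level was 45.7 against 209.99 CPM at ss11 and 40.4 against 223.8 CPM at ss15. In the 10 crest-marked marker-low cells the median was 0.654 and the highest value 81.4 CPM, against a median of 53.9 in the other 41. The part of complexity and reporter level in the differences below was not tested.

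Counts were then summed over the cells of each group at each stage, scaled to CPM, and compared as log2 folds after 1 CPM had been added. A gene was measured when it had at least 20 CPM in 1 group and 10 CPM in at least 20% of the cells of that group. Where a gene was under 20 CPM in the other group, it was measured through 1 group alone. The direction of such a gene followed from the limit. GATA3 and the 3 gate genes were left out. At ss11, 435 of 6975 measured genes (6.24%) were at least 2-fold higher in marker-low cells and 434 (6.22%) at least 2-fold lower. At ss15, 475 of 6915 (6.87%) were higher and 440 (6.36%) lower. The median log2 fold over all measured genes was -0.00053 at ss11 and -0.0062 at ss15. Of 6429 genes measured at both stages, 71 (1.1%) were at least 2-fold higher at both and 49 (0.762%) at least 2-fold lower at both. Counted among genes measured at both stages alone, the 71 were 25.5% of those higher at ss11 and 22.3% of those higher at ss15. On the same basis the 49 were 13.5% and 13.2% of those lower. A gene that missed 2-fold at a stage is not thereby shown to have changed between stages. Another 16 genes were higher at ss11 and lower at ss15, and 27 the reverse. A symbol was known for 8 of the 71 and 4 of the 49 genes.

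**Figure D3:**
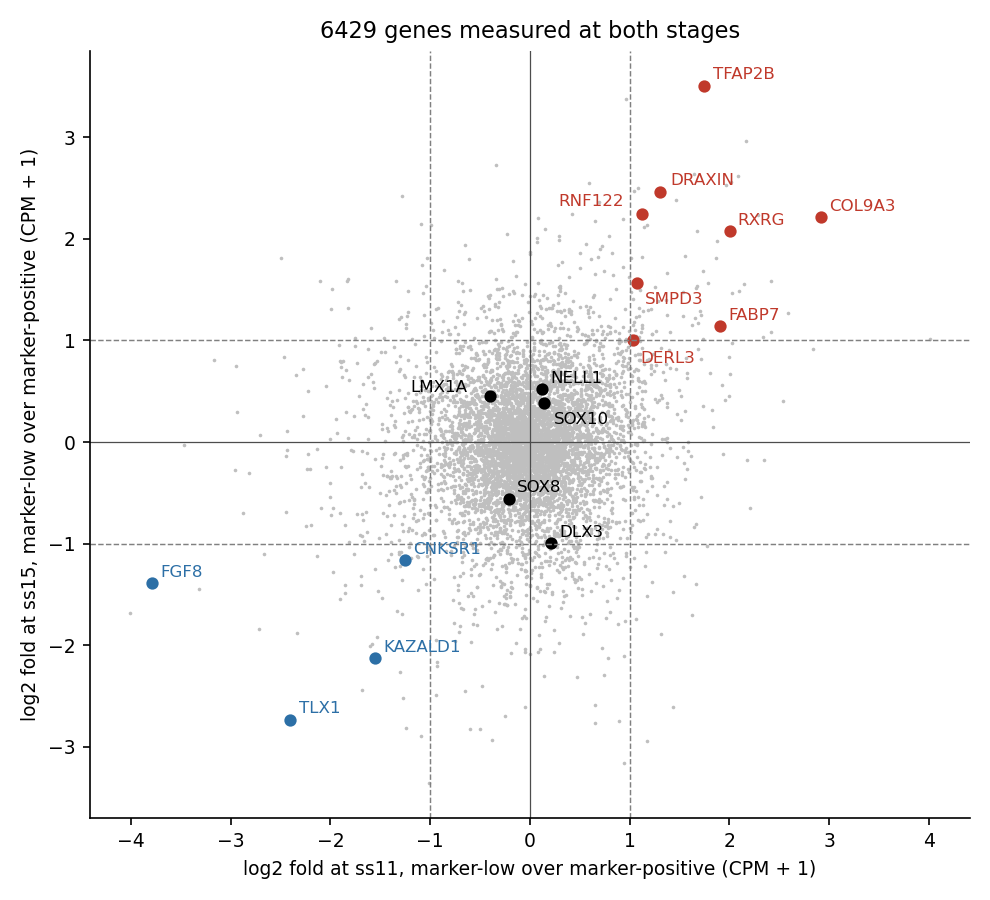
Each point is 1 of the 6429 genes measured at both stages, with its log2 fold of marker-low over marker-positive cells (summed counts, CPM + 1) at ss11 on the horizontal axis and at ss15 on the vertical axis. Dashed lines mark 2-fold. The 8 named genes higher at both stages are in red, the 4 lower at both in blue, and genes followed whatever their value in black. TFAP2B and COL9A3 lie far out in the upper right, and FGF8 and TLX1 in the lower left.

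The 4 named genes lower at both stages were TLX1, FGF8, KAZALD1 and CNKSR1. Each was under 20 CPM in marker-low cells at both stages. All 4 were thus measured through marker-positive cells alone, and their direction followed from the limit. Most symbols came from the study's own lists of otic and epibranchial genes, so which genes could be named followed in part from those lists. TLX1 (ENSGALG00000007831) encodes a homeodomain factor of cranial sensory neurons. It was at 6.33 CPM in marker-low cells (5.43 to 7.33) against 37.7 CPM in marker-positive cells (36.4 to 39.1) at ss11, a log2 fold of -2.40. At ss15 it was at 15.6 CPM (13.8 to 17.5) against 109.1 CPM (106.9 to 111.3), a log2 fold of -2.73. Per cell, the median was 0 in all groups, and 2 of 29 marker-low cells (highest 144.4 CPM) against 18 of 78 marker-positive cells (highest 420 CPM) had 10 CPM at ss11. At ss15, 3 of 22 (highest 184.5 CPM) against 25 of 94 (highest 2211 CPM) did. The intervals of these shares were 0.846 to 22.8% against 14.3 to 33.997% at ss11.

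FGF8 (ENSGALG00000007706), a secreted growth factor of the pharyngeal region, had the largest fold of the 4 at ss11. It was at 2.52 CPM in marker-low cells against 47.6 CPM in marker-positive cells at ss11 (log2 fold -3.79, -4.03 to -3.54) and at 13.3 against 36.5 CPM at ss15 (-1.39, -1.57 to -1.21). FGF8 reached 10 CPM in 2 of 29 marker-low cells (6.897%, 0.846 to 22.8) against 31 of 78 marker-positive cells (39.7%, 28.8 to 51.5) at ss11. At ss15 it did so in 3 of 22 (13.6%, 2.91 to 34.9) against 36 of 94 (38.3%, 28.5 to 48.9). The highest marker-low cell at ss15 had 201.2 CPM, and without the highest cell of each group the log2 fold there was -3.49.

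KAZALD1 (ENSGALG00000007837), a secreted protein with a Kazal domain, was at 19.3 against 58.6 CPM at ss11 (log2 fold -1.56) and at 18.4 against 83.9 CPM at ss15 (-2.13). It was detected in 6 of 29 against 32 of 78 cells and in 6 of 22 against 35 of 94 cells. CNKSR1 (ENSGALG00000046299), a scaffold protein of Ras signalling, was at 13.9 against 34.5 CPM (-1.26) and at 12.8 against 29.8 CPM (-1.16), in 5 of 29 against 29 of 78 and 4 of 22 against 20 of 94 cells. Without the crest-marked and mesoderm-marked cells these 4 genes were still lower at both stages, with log2 folds of -2.15 and -3.26 for TLX1, -3.78 and -1.05 for FGF8, -1.70 and -2.27 for KAZALD1, and -0.94 and -0.97 for CNKSR1 at ss11 and ss15. CNKSR1 then no longer passed 2-fold. Against SOHO-1 cells alone the folds were -0.65 and -0.91 for KAZALD1 and -0.10 and -1.73 for CNKSR1, and against VGLL2 or ISL1 cells alone -2.06 and -3.07 for KAZALD1 and -1.77 and -0.25 for CNKSR1. CNKSR1 thus passed 2-fold against a different type at each stage.

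FGF8 and TLX1 were carried mainly by the epibranchial-type part of the marker-positive group. TLX1 was at 79.3 CPM in cells with VGLL2 or ISL1 alone and at 3.69 CPM in cells with SOHO-1 alone at ss11, and at 243.7 and 18.3 CPM at ss15. Against the SOHO-1 cells alone, the log2 fold of TLX1 in marker-low cells was 0.64 at ss11 and -0.22 at ss15, and that of FGF8 was 1.32 and 1.88 (2.52 against 0.413 CPM and 13.3 against 2.89 CPM). Marker-low cells were therefore lower in FGF8 than the epibranchial-type cells but not lower than the otic-type cells. The homeobox genes NKX2-5 (ENSGALG00000002886) and NKX2-6 (ENSGALG00000000365), known from heart and pharynx, fell outside the rule for named genes because they were not measured at both stages. They were chosen after their values were seen. NKX2-6 had 0 reads in the 29 marker-low cells at ss11 (0%, up to 11.9% of cells) against 18.2 CPM in marker-positive cells, where 7 of 78 cells had it (3.68 to 17.6%). A share of that size is not told apart from 0 of 29 cells at this number of cells. At ss15 it was at 0.926 against 42.2 CPM, in 1 of 22 against 19 of 94 cells. NKX2-5 was at 0.356 against 18.2 CPM at ss11, in 1 of 29 (up to 17.8%) against 19 of 78 cells (15.3 to 35.4%), and at 0.163 against 9.88 CPM at ss15, in 0 of 22 (up to 15.4%) against 16 of 94 cells (10.1 to 26.2%).

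**Figure D4:**
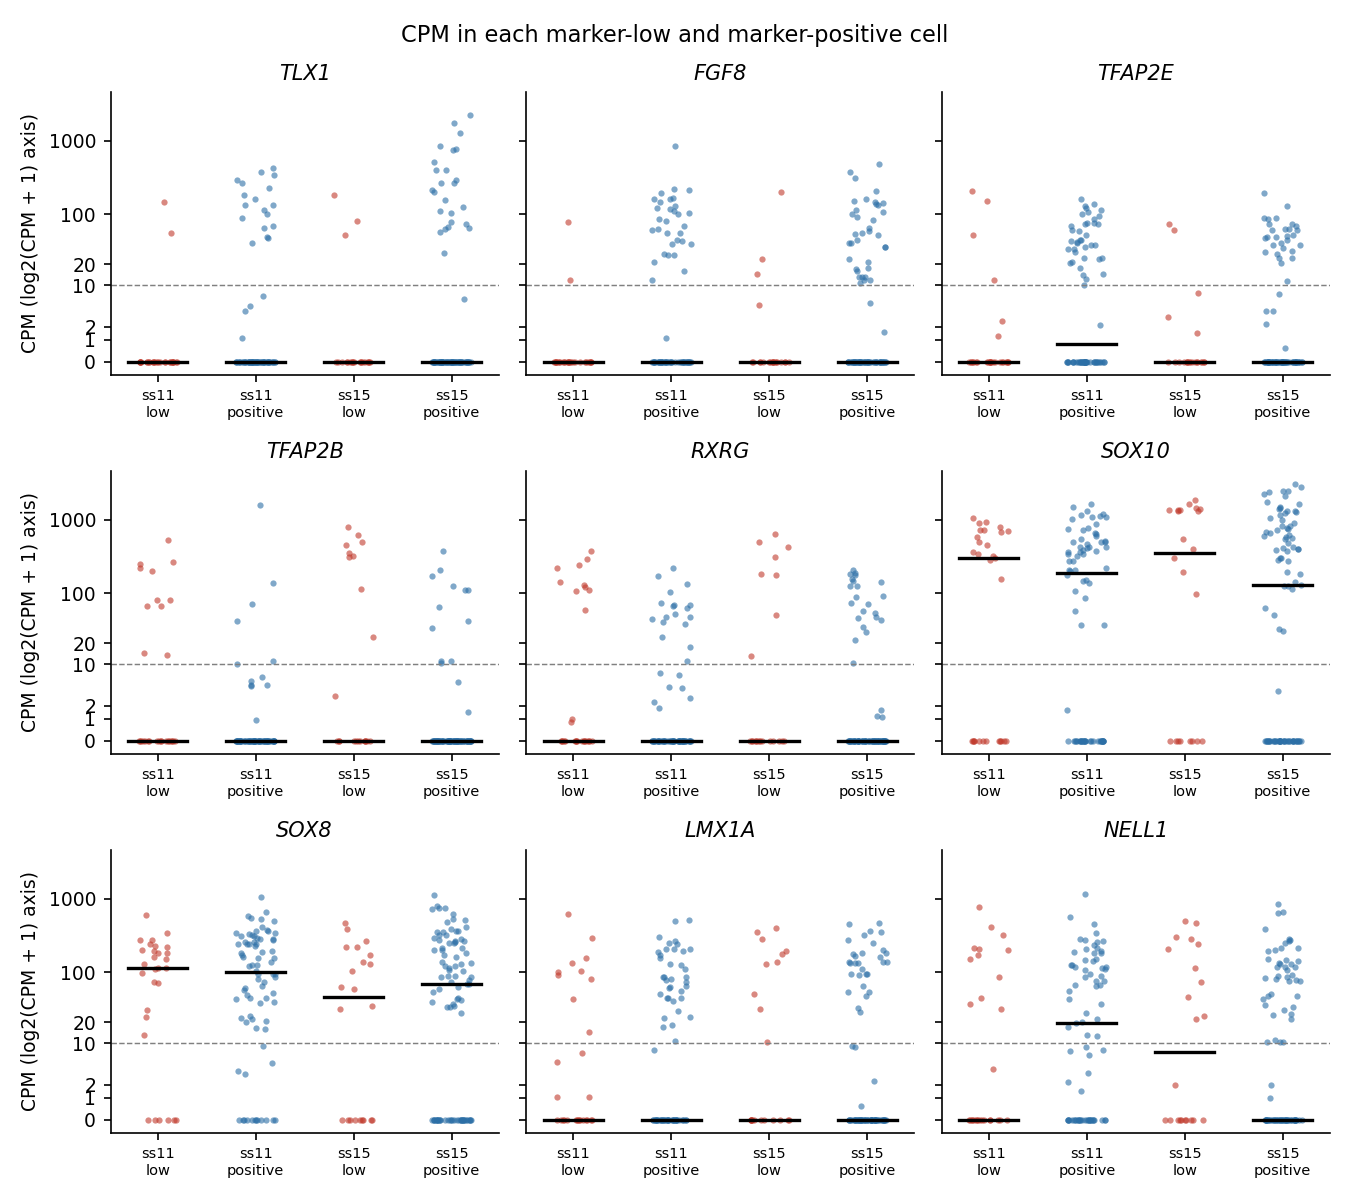
Each point is a cell, with its CPM of 9 genes on a log2(CPM + 1) axis in marker-low (red) and marker-positive (blue) cells at ss11 and ss15. Black bars are medians and the dashed line is 10 CPM. In the top row few marker-low cells rise above the line (2 of 29 and 3 of 22 for TLX1), in the middle row TFAP2B does so in 11 of 29 and 9 of 22 marker-low cells, and in the bottom row the ranges of the groups overlap.

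Genes higher at both stages included 3 of the crest markers. TFAP2B at both stages, RXRG at ss11 and DRAXIN at ss15 were measured through marker-low cells alone, and there the limit set their direction. TFAP2B (ENSGALG00000016680), an AP-2 transcription factor gene, was at 66.2 CPM in marker-low cells (63.3 to 69.3) against 18.99 CPM in marker-positive cells (18.04 to 19.97) at ss11, a log2 fold of 1.75, and at 164.7 against 13.6 CPM at ss15, a log2 fold of 3.51. It reached 10 CPM in 11 of 29 marker-low cells (37.9%, 20.7 to 57.7) against 6 of 78 marker-positive cells (7.69%, 2.88 to 15.99) at ss11, and in 9 of 22 (40.9%, 20.7 to 63.6) against 12 of 94 (12.8%, 6.77 to 21.2) at ss15. At ss11 the highest cell of all was marker-positive, at 1604 CPM, and without the highest cell of each group the log2 fold was 3.32. RXRG (ENSGALG00000040730), a retinoid X receptor gene, was at 64.2 against 15.3 CPM at ss11 (2.002) and at 116.3 against 26.8 CPM at ss15 (2.08), and DRAXIN (ENSGALG00000004631), a secreted axon guidance factor and Wnt antagonist, at 109.4 against 43.8 CPM (1.30) and 119.3 against 20.8 CPM (2.46). A single marker-low cell had 2201 CPM of DRAXIN at ss15, and without the highest cell of each group that fold was 1.44. In a list of 11 crest markers, 3 were measured at ss11 and 4 at ss15, with median log2 folds of 1.75 and 2.27. Against SOHO-1 cells alone the medians were 0.65 and 2.25, and against VGLL2 or ISL1 cells alone 4.47 and 3.04. The ss11 median thus did not pass 2-fold against SOHO-1 cells.

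These 3 genes were not confined to the crest-marked cells. Among the marker-low cells left after those were removed, TFAP2B reached 10 CPM in 7 of 23 at ss11 and 3 of 16 at ss15, RXRG in 7 and 3, and DRAXIN in 5 and 4. The log2 folds without the crest-marked and mesoderm-marked cells were 3.91 and 1.81 for TFAP2B, 1.68 and 1.26 for RXRG, and 1.30 and 2.98 for DRAXIN. As the removal itself used these genes, those values describe the remaining cells and do not measure the genes independently. At ss15 TFAP2B and RXRG, each in 3 of 16 remaining marker-low cells, were then under the limit for a measured gene.

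Of the other 5 named genes higher at both stages, 3 turned round at ss15 when the crest-marked and mesoderm-marked cells were left out. COL9A3 (ENSGALG00000005628), a collagen IX chain gene, was at 64.7 against 7.68 CPM at ss11 (log2 fold 2.92) and 80.3 against 16.6 CPM at ss15 (2.21). It was detected in 6 of 29 against 5 of 78 and in 6 of 22 against 9 of 94 cells. Without the crest-marked and mesoderm-marked cells its fold was 4.43 at ss11 but -1.44 at ss15. It was then under the limit for a measured gene at both stages, and 3 of the 23 remaining marker-low cells carried it at ss11. At ss15, 5 of the 6 crest-marked marker-low cells carried it and 1 of the other 16 did. FABP7 (ENSGALG00000038933), a fatty acid binding protein gene of glial progenitors, turned round in the same way at ss15, with 1.90 at ss11 and 1.14 at ss15 in all cells, and 1.61 and -1.28 without them. SMPD3 (ENSGALG00000034950), encoding a neutral sphingomyelinase, had 1.07 and 1.56 in all cells, and 1.56 and -1.64 without them. RNF122, a RING finger gene, and DERL3, of endoplasmic reticulum protein quality control, kept their side. RNF122 was at 21.4 against 9.32 CPM at ss11 and 29.5 against 5.42 CPM at ss15, with folds of 1.12 and 2.25, and 1.08 and 2.14 without those cells. DERL3 was at 61.9 against 29.8 and 38.99 against 18.98 CPM, with folds of 1.03 and 1.001, and 1.06 and 1.09 without them. Without the highest cell of each group the folds were 1.01 and 2.09 for RNF122 and 0.79 and 0.97 for DERL3, and against VGLL2 or ISL1 cells alone DERL3 had 0.25 at ss15. COL9A3 and RNF122 at both stages and DERL3 at ss15 were under 20 CPM in marker-positive cells. They were thus measured there through marker-low cells alone, and the limit set their direction.

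Without the crest-marked and mesoderm-marked cells, 34 of the 71 genes higher at both stages and 29 of the 49 lower at both still passed 2-fold at both. Leaving out the highest cell of each group for each gene kept 29 of the 71 and 48 of the 49. As 1 cell is a larger share of 22 or 29 cells than of 94 or 78, that removal lowers folds by its construction, and no difference between higher and lower genes is read from it. Leaving out any 1 marker-low cell altogether gave 63 to 74 genes higher at both stages. Against SOHO-1 cells alone 50 of the 71 and 29 of the 49 passed 2-fold at both stages, and against VGLL2 or ISL1 cells alone 42 and 29 did. Among genes without a symbol, the largest folds in 1 direction at both stages were those of ENSGALG00000006644 (2.29 and 2.24) and ENSGALG00000008980 (2.16 and 2.96) on the higher side, and of ENSGALG00000035492 (-2.33 and -1.87) and ENSGALG00000017242 (-2.71 and -1.84) on the lower side. ENSGALG00000035492 was carried by 1 of 29 against 23 of 78 and 1 of 22 against 20 of 94 cells. ENSGALG00000006644 had -0.60 at ss15 without the crest-marked and mesoderm-marked cells, whereas ENSGALG00000008980 had 3.18.

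SOX8, SOX10 and LMX1A were followed whatever their value. SOX8 (ENSGALG00000005263) had a median of 113.6 CPM in marker-low cells (0 to 593) against 99.3 CPM in marker-positive cells (0 to 1060) at ss11, and 46.9 CPM (0 to 465) against 68.3 CPM (0 to 1119) at ss15. It was detected in 23 of 29 against 62 of 78 and in 13 of 22 against 60 of 94 cells, and its summed folds were -0.21 and -0.56, or -0.14 and -0.55 without the crest-marked and mesoderm-marked cells. At ss15 it was detected in all 6 crest-marked marker-low cells but in 7 of the other 16, whose median was 0 CPM. SOX10 (ENSGALG00000012290) had medians of 303 against 188.9 CPM at ss11 and 354 against 127.8 CPM at ss15, with folds of 0.14 and 0.38. At ss15 its fold was -0.17 without the crest-marked and mesoderm-marked cells. LMX1A (ENSGALG00000003424), a LIM-homeodomain factor gene of the otic placode, was in 10 of 29 against 37 of 78 cells at ss11 and 10 of 22 against 30 of 94 at ss15, with folds on opposite sides of 0, -0.40 and 0.45.

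Set against the 2 kinds of marker-positive cells, marker-low cells lay between them for SOX8, SOX10 and LMX1A, but not for every otic gene. SOX8 was at 143.1 CPM in marker-low cells at ss11, against 266.8 CPM in SOHO-1 cells and 57.4 CPM in VGLL2 or ISL1 cells, and at 102.5 CPM at ss15, against 280.5 and 28.5 CPM. SOX10 was at 363 CPM, against 617 and 27.2 CPM, and at 669 CPM, against 944 and 75.9 CPM. LMX1A was at 45.8 CPM, against 111.1 and 13.6 CPM, and at 73.6 CPM, against 93.8 and 12.8 CPM. DACT2 and COL9A3, also on the otic list, did not lie between the 2 kinds when all marker-low cells were summed. DACT2 was at 180.7 CPM at ss11, against 177.8 and 39.6 CPM, and at 179.1 CPM at ss15, against 48.9 and 35.9 CPM. It was thus level with SOHO-1 cells at ss11 and above either kind at ss15. In marker-low cells without crest or mesoderm marking it was at 149.2 CPM at ss11 and 139.4 CPM at ss15. COL9A3 was at 64.7 CPM, against 17.9 and 0.178 CPM, and at 80.3 CPM, against 18.1 and 9.85 CPM. In marker-low cells without crest or mesoderm marking COL9A3 was at 56.4 CPM at ss11 but 3.43 CPM at ss15, so its ss15 level came from the crest-marked cells. A mean over a mixed group can lie between others without any single cell doing so, and single marker-low cells ranged from 0 to 1046 CPM of SOX10 at ss11 and from 0 to 1859 CPM at ss15.

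Of the epibranchial genes, TFAP2E and NELL1 did not move together. TFAP2E (ENSGALG00000039497), the AP-2 epsilon gene, was at 12.6 against 28.5 CPM at ss11 (log2 fold -1.12) and reached 10 CPM in 4 of 29 marker-low cells (13.8%, 3.89 to 31.7) against 38 of 78 marker-positive cells (48.7%, 37.2 to 60.3). TFAP2E was measured at ss11 through marker-positive cells alone. At ss15 it was at 6.92 against 17.7 CPM, below the limit for a measured gene, in 2 of 22 (9.09%, 1.12 to 29.2) against 29 of 94 cells (30.9%, 21.7 to 41.2). NELL1 (ENSGALG00000003777), a secreted protein with EGF-like repeats, was at 90.3 against 83.1 CPM at ss11 (0.12) and 112.5 against 77.9 CPM at ss15 (0.52), in 12 of 29 against 43 of 78 and 11 of 22 against 44 of 94 cells. PRDM1, a zinc finger repressor gene, was lower at ss11 (33.8 against 102.6 CPM, -1.57, in 6 of 29 against 51 of 78 cells) and had 109.2 against 72.3 CPM at ss15 (0.59, in 14 of 22 against 45 of 94 cells). DLX3 (ENSGALG00000040529), a pan-placodal homeobox gene, had folds of 0.21 and -0.99, and DLX6, which was not measured at either stage, was in 3 of 29 against 14 of 78 and 3 of 22 against 21 of 94 cells.

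Co-detection of otic and epibranchial genes in 1 cell, the property by which a shared progenitor state is looked for, was counted next. SOX8 or LMX1A and, in the same cell, TFAP2E or NELL1 reached 10 CPM in 13 of 29 marker-low cells (44.8%, 26.4 to 64.3) against 47 of 78 marker-positive cells (60.3%, 48.5 to 71.2) at ss11. At ss15 they did in 9 of 22 (40.9%, 20.7 to 63.6) against 32 of 94 (34.04%, 24.6 to 44.5). The order of the shares differed between the stages. Without the crest-marked and mesoderm-marked cells the marker-low share was 43.5% at ss11 (10 of 23, 23.2 to 65.5), and 8 of 16 cells had both at ss15 (24.7 to 75.3%). Otic genes without the epibranchial pair were found in 12 of 29 and 8 of 22 marker-low cells, against 20 of 78 and 35 of 94, and the epibranchial pair without the otic genes in 2 of 29 and 3 of 22, against 8 of 78 and 22 of 94. Among marker-positive cells, those with SOHO-1 alone had both programmes in 18 of 33 and 14 of 42 cells and those with VGLL2 or ISL1 alone in 22 of 34 and 11 of 38, so that co-detection was not particular to marker-low cells at either stage. The pair of SOX8 and TFAP2E was seen in 3 of 29 (10.3%, 2.19 to 27.4) against 30 of 78 cells (38.5%, 27.7 to 50.2) at ss11 and in 1 of 22 against 16 of 94 at ss15, and LMX1A with TFAP2E in 1 of 29 against 12 of 78 and 0 of 22 (up to 15.4%) against 9 of 94.

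At ss8 the same gates gave 59 marker-low and 18 marker-positive cells among 87 GATA3-positive ones, after 8 pairs of near-identical libraries had each been joined into 1 cell. There 43 of 59 marker-low cells had both programmes (72.9%, 59.7 to 83.6), and 36 of 44 without the crest-marked and mesoderm-marked cells. LMX1A was in 32 of 59 marker-low cells at ss8, 10 of 29 at ss11 and 10 of 22 at ss15, and TFAP2E in 31 of 59, 4 of 29 and 2 of 22. DLX6 was in 41 of 59, 3 of 29 and 3 of 22, and DACT2, an antagonist of Wnt and TGF-beta signalling, in 53 of 59, 13 of 29 and 10 of 22. SOX8 was at 29.7 CPM at ss8, 143.1 CPM at ss11 and 102.5 CPM at ss15, and SOX10 at 78.2, 363 and 669 CPM. At ss15 the median SOX10 was 1367 CPM in the 6 crest-marked marker-low cells and 48.8 CPM in the other 16. The ss8 cells came from another sort and, by the study's methods, another sequencer, so stage and batch cannot be told apart in these values.

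Gene lists are described by counts and medians, and they were drawn up with results of these data known. Of 29 otic genes, 12 had an identifier and 9 were measured at ss11 and 10 at ss15. Of these, 3 and 4 were at least 2-fold higher in marker-low cells and 0 and 1 lower, with median log2 folds of 0.23 and 0.41. Without the crest-marked and mesoderm-marked cells 8 and 7 were measured, and the medians were 0.16 and -0.17. Then 2 and 1 were at least 2-fold higher and 0 and 1 lower, so the ss15 median was no longer above 0. With no cells left out, the otic medians were -0.60 and -0.50 against SOHO-1 cells alone. Against VGLL2 or ISL1 cells alone they were 2.28 and 2.36, so their direction depended on the marker-positive cells used. The 4 members with the largest fold in 1 direction at both stages were COL9A3, RXRG, FABP7 and DACT2. DACT2 was at 180.7 against 100.97 CPM (0.83) and 179.1 against 56.5 CPM (1.65). Of 25 epibranchial genes, 18 had an identifier and 13 and 14 were measured, of which 0 were 2-fold higher and 6 and 3 lower, with medians of -0.67 and -0.49. Without the crest-marked and mesoderm-marked cells the medians were -0.70 and -0.22, with 0 higher and 5 and 3 lower. With no cells left out, the epibranchial medians were 0.13 and 1.05 against SOHO-1 cells alone. Against VGLL2 or ISL1 cells alone they were -1.52 and -1.40. TLX1, FGF8, FGF18 and KRT18 led the epibranchial list. TLX1 and FGF8 at both stages and FGF18 at ss15 passed the limit for a measured gene through marker-positive cells alone. FGF18 was at 38.0 against 104.8 CPM at ss11 (-1.44) in 11 of 29 against 55 of 78 cells and at 19.6 against 37.6 CPM at ss15 (-0.90). The keratin gene KRT18 had -0.62 and -0.63. Some members of each list were measured through 1 group alone, and the limit set their direction. The counts therefore support nothing about the lists. The shares over all measured genes were 6.24% and 6.87% higher and 6.22% and 6.36% lower. Without the crest-marked and mesoderm-marked cells those shares were 8.22% and 9.88% higher and 8.06% and 10.6% lower.

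The study's bulk RNA-seq defined further otic and epibranchial lists, from samples other than these, and the gate genes were left out of them. Those samples were cells sorted by an otic or an epibranchial enhancer reporter, from embryos at a later stage than ss15. Members measured through 1 group alone had their direction set by the limit. This held at both stages for COL9A3 of the otic list and CNKSR1 of the epibranchial list. The counts of members past 2-fold therefore support nothing about these lists. Of the bulk otic genes 24 were measured at ss11 and 27 at ss15, with 9 and 14 at least 2-fold higher, 0 lower at either stage, and medians of 0.62 and 1.14. Over all measured genes 6.24% and 6.87% were higher and 6.22% and 6.36% lower. Without the crest-marked and mesoderm-marked cells the measured members numbered 19 and 15 and the medians were 0.44 and -0.04, with 6 and 3 higher, so that the ss15 median was no longer above 0. Over all genes measured without those cells 8.22% and 9.88% were higher. Of the 316 bulk epibranchial genes 37 measured ones lay above 0 and 60 below at ss11, and 39 and 62 at ss15, with 8 and 12 at least 2-fold higher and 20 and 18 lower, and medians of -0.32 and -0.25, or -0.13 and 0.24 without those cells. Against SOHO-1 cells alone the bulk epibranchial median was 0.22 at ss11 and 0.56 at ss15, and against VGLL2 or ISL1 cells alone -0.65 and -0.70, while the bulk otic median was 0.10 and 1.03 against SOHO-1 cells and 2.18 and 2.099 against the others. The direction of each bulk epibranchial median thus depended on which marker-positive cells were used.

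**Figure D5:**
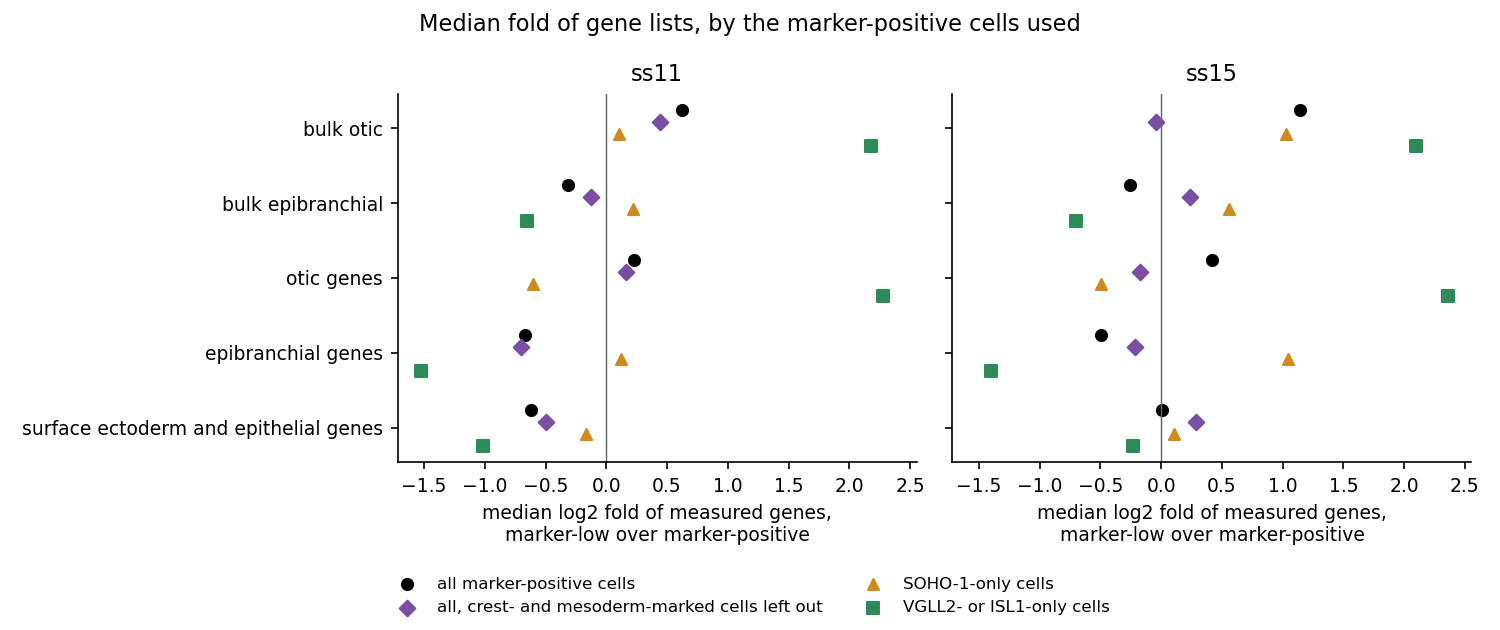
Median log2 fold of the measured genes of 5 lists, marker-low over marker-positive cells, at ss11 (left) and ss15 (right). Circles use all marker-positive cells, diamonds leave out crest-marked and mesoderm-marked cells from both groups, triangles use SOHO-1 cells alone and squares VGLL2 or ISL1 cells alone. Otic lists lie between 2.099 and 2.36 against VGLL2 or ISL1 cells, and the bulk otic median at ss15 moves from 1.14 to -0.04 without the marked cells.

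Of 26 surface ectoderm and epithelial genes 15 were measured at each stage, with 0 higher and 5 lower at ss11 (median -0.62) and 2 higher and 0 lower at ss15 (0.0057). For this list and those that follow, the shares over all measured genes were 6.24% and 6.87% higher and 6.22% and 6.36% lower. ESRP1, an epithelial splicing regulator, was at 16.7 against 55.8 CPM at ss11 (-1.69), in 7 of 29 against 38 of 78 cells, and at 18.8 against 36.6 CPM at ss15 (-0.93). It was measured through marker-positive cells alone. BMP2, a growth factor gene, had 60.02 against 32.6 CPM (0.86) and 65.4 against 22.4 CPM (1.51). The E-cadherin gene CDH1 was in 16 of 29 against 58 of 78 cells at ss11 and in 14 of 22 against 60 of 94 at ss15, with folds of -0.60 and 0.39. Of the signalling lists, 2 FGF pathway genes were measured, FGF8 and FGF18. Of 15 Wnt pathway genes 8 and 9 were measured, with 2 higher at each stage, and 0 and 1 lower, and medians of 0.06 and 0.33. They were led by DRAXIN and DACT2, with SFRP1 at -0.52 and -0.07 and SOSTDC1 at 0.13 and 0.33. Without the crest-marked and mesoderm-marked cells 7 and 8 Wnt pathway genes were measured, with medians of 0.32 and -0.22. Then 2 were higher at each stage and 0 and 2 lower, so the ss15 median was no longer above 0. The choice of the cells left out itself used DRAXIN. Of 20 early progenitor genes 4 and 5 were measured, with medians of 0.36 and 0.51. ASTL, an astacin-like protease gene, had -0.62 and -1.52 and the homeobox gene IRX1 0.51 and 0.51. DLX3 and IRX1 were also the 2 measured genes of 11 pan-placodal ones, with medians of 0.36 and -0.24. Without the crest-marked and mesoderm-marked cells the pan-placodal medians were 0.66 and 0.16. Of 11 crest markers 9 had an identifier and 3 and 4 were measured, and these were at least 2-fold higher. TFAP2B at both stages, RXRG at ss11 and DRAXIN at ss15 passed the limit for a measured gene through marker-low cells alone, so the count supports nothing about the list. One mesoderm and heart gene, TNNC2, was measured, with 0.73 and 0.71, and no neural, endothelial or blood marker was. Of the endoderm markers NKX2-6 alone was measured, at ss15. The 4 measured immediate early and stress genes, JUN, FOS, HSPA2 and SRF, had folds of -0.78 to -0.11 at ss11 and -0.80 to -0.31 at ss15, and none passed 2-fold.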

How the data were processed

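Counts per gene and cell were those deposited by the authors. Their processing notes list Cutadapt 2.10 for trimming, HISAT2 2.2.1 for alignment (build galGal6, to which the GFP sequence had been joined), SAMtools 1.10, and HTSeq 0.12.4 for counting. GFP reads were deposited as a separate count for each cell. SmartSeq2 reads carry no molecular identifiers, so counts include PCR copies, and they carry no strand, so overlapping genes cannot be told apart. Of 24356 genes, 332 could be given a symbol, which the study's tables pair with the identifier, and named genes are drawn from these.

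CPM were counts divided by the cell's total over genes, times 1000000. Cells were gated as described, with at least 500000 reads. Group counts were sums over cells, with log2 folds taken after adding 1 CPM, and ratio intervals taken from the exact conditional Poisson distribution. Shares have exact Clopper-Pearson intervals. Each stage is 1 sample, so no p-value is given. The fold script was tested on simulated data. Libraries with at least 20000 reads and a correlation above 0.95 were joined, which met 8 pairs at ss8 and none at ss11 or ss15. The tables have 0 value columns of other samples. TMM factors, an alternative, came from edgeR 4.0.16 in R 4.3.3, with NumPy 2.4.6 and SciPy 1.17.1 for the rest.

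Genes were named when at least 2-fold different in 1 direction at both stages, up to 10 on each side by the smaller fold. SOX8, SOX10, LMX1A, TFAP2E, NELL1, DLX3 and DLX6 were named whatever their value, as were up to 4 members of each list and 2 genes without a symbol on each side. One gene of the epithelial list that the rule names is not reported here. PRDM1, CDH1, EPCAM, NKX2-5 and NKX2-6 were added after their values were seen. The groups, limits, lists and rules were chosen with earlier results of these data known. The alternatives were other gates, other marker-positive cells, another scaling, filter or pseudocount, cells weighing the same, and leaving out cells.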

Additional observations from a re-analysis of the deposited data

Results flagged for a closer look

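Some genes named above lay on opposite sides of 0 at ss11 and ss15, with a counting interval that left 0 out at each stage. That interval covers reads alone and not the spread between cells, so it served to pick the genes and does not establish their side of 0. The difference between stages was not tested, since each stage is 1 sample. The log2 fold of marker-low over marker-positive cells was -1.57 at ss11 and 0.59 at ss15 for PRDM1, -0.60 and 0.39 for CDH1, -0.40 and 0.45 for LMX1A, 0.21 and -0.99 for DLX3, and 0.18 and -0.55 for the uroplakin gene UPK1B. Without the highest cell of each group DLX3 had -0.0074 at ss11 and -0.97 at ss15, so 1 cell set its side at ss11, and the other 4 genes kept theirs. PRDM1 was carried by 6 of 29 marker-low cells at ss11 and 14 of 22 at ss15, against 51 of 78 and 45 of 94 marker-positive cells. The number of genes per cell turned in the same way as PRDM1, CDH1 and LMX1A. In 500000 reads the difference in the median number of genes, marker-low minus marker-positive, was -1114.5 at ss11 and 759.5 at ss15. At ss15 the median was 6559 genes in the 6 crest-marked marker-low cells and 5076 in the other 16, against 4850 in marker-positive cells. The part of the number of genes in these folds was not tested.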

How the results depend on the processing

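Each stage is 1 sample, and folds past 2-fold describe these cells. Of 765 values that the 45 named folds past 2-fold took under the alternatives, 705 kept their direction and their side of 2-fold and 12 changed sign. Counts of genes are given here as a percent of the genes measured under each setting, since that number moves with the setting. Requiring 1000000 reads and 2000 genes left 13 and 4 marker-low cells (11.1% of GATA3-positive cells at ss15). Then 2.29% were higher and 2.56% lower at both stages, 12.7% lower at ss11, and 18.9% higher and 17.1% lower at ss15, where FGF8 had a log2 fold of 0.35 and ENSGALG00000035492 one of 1.90. With 50 CPM required of a measured gene, 0.827% were higher and 0.258% lower at both stages, 4.71% and 3.08% at ss11, and 5.11% and 3.38% at ss15. With no filter these were 2.199% and 2.57%, 10.6% and 10.4%, and 9.69% and 12.02%. Without the highest cell of each group they were 0.369% and 2.23%, 2.83% and 11.2%, and 3.62% and 12.04%, and 1 cell is a larger share of 22 or 29 cells than of 94 or 78. Against cells with SOHO-1 alone 1.87% were higher at both stages and 11.2% at ss15, and the log2 fold was 1.32 at ss11 and 1.88 at ss15 for FGF8, 0.64 at ss11 for TLX1, -0.018 at ss11 for SMPD3, and 0.044 for NKX2-5 and 0.89 for ASTL at ss15. Against cells with VGLL2 or ISL1 alone 1.26% were lower at both stages. Without crest-marked and mesoderm-marked cells 10.6% were lower at ss15, and there the log2 fold was -1.44 for COL9A3, -1.28 for FABP7, -1.64 for SMPD3 and -0.60 for ENSGALG00000006644, and the bulk otic median -0.040. COL9A3 was then under the limit for a measured gene at both stages. The causes of these shifts were not tested. Leaving out each marker-low cell in turn, an alternative chosen after seeing the data, gave 63 to 74 genes higher and 46 to 59 lower at both stages. No paired analysis was possible because each stage is 1 sample and the labels give the cells no replicate numbers.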
